A study of Mus musculus with 16 samples.

Results

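The Siglec family was followed through 7 genes, *Siglecg*, *Siglech*, *Siglece*, *Siglecf*, *Siglec1*, *Cd22* and *Cd33*, which were taken by symbol from the 54347 genes of one RNA-seq count table. They had been picked with the URE against WT differences of these libraries in view, above all that of *Siglecg* in LSK cells. Those differences are therefore given as values and without a p, and they support nothing further. The table holds 16 libraries from mouse bone marrow, 4 in each of the groups WT LSK, URE LSK, WT GMP and URE GMP. URE mice lack the upstream regulatory element, an enhancer of *Spi1*, the gene of the transcription factor PU.1, and WT mice were littermates with the enhancer intact. All were C57BL/6 mice of 8 to 12 weeks, the URE mice at a preleukemic stage. LSK cells (lineage-negative, Sca-1+ and c-Kit+) contain the blood stem cells and the earliest progenitors, and GMPs (lineage-negative, Sca-1-, c-Kit+ and Cd16/32+) are granulocyte-monocyte progenitors. Both were sorted by surface markers from c-Kit-enriched femoral marrow, so a group is a gate, which can hold several kinds of cell, and the deletion is present in every cell of the mouse.

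Siglecs are cell-surface lectins that bind sialic acid, the sugar that caps most glycans of vertebrate cells. Most of them carry an inhibitory motif (ITIM) in the cytoplasmic tail that recruits the phosphatase SHP-1 and thereby damps activating signals. A few lack it and pair with the adaptor DAP12 instead. In mouse blood, *Cd22* and *Siglecg* are known as inhibitory receptors of B cells, *Siglece* of neutrophils and macrophages, *Siglecf* of eosinophils, *Siglech* marks plasmacytoid dendritic cells, *Siglec1* (sialoadhesin) marks tissue macrophages, and *Cd33* is a myeloid receptor.

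*Siglecg*, *Siglece*, *Siglecf* and *Cd33* lie together on chromosome 7 (GRCm38), between 43351341 (first base of *Siglecf*) and 43660161 (last base of *Siglece*). *Siglecf* and *Siglecg* are direct neighbours, 48673 bases apart, on the plus strand, whereas *Cd33* and *Siglece* are on the minus strand. *Siglech* (55768178 to 55778925) and *Cd22* (30865402 to 30880342) are on the same chromosome outside this cluster. *Siglec1* is on chromosome 2 (131069220 to 131086765). Each member of the cluster was lower in every URE library than in any WT library of its cell type, as was *Siglech* outside it. For that reason the 250 bases before the start site are printed, for the members of the cluster only. They are RefSeq sequences of GRCm38.p6, read 5′ to 3′ in the direction of each gene. Capitals mark GAGGAA (the PU box) and GGAAGT (an ETS core), or their reverse complements TTCCTC and ACTTCC, and TGTGGT (the RUNX core) or its reverse complement ACCACA.
Siglecg (chr7:43407989-43408238, + strand): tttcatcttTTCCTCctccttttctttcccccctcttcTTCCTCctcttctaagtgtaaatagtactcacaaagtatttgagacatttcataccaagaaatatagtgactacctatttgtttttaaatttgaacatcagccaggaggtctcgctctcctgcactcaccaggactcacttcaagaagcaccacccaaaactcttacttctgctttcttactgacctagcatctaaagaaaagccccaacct
Siglece (chr7:43660162-43660411, - strand): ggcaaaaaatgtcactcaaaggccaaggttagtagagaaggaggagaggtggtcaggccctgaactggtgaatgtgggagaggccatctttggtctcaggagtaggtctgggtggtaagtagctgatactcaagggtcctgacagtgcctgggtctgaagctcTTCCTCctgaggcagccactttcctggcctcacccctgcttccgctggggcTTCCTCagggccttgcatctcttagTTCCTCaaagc
Siglecf (chr7:43351091-43351340, + strand): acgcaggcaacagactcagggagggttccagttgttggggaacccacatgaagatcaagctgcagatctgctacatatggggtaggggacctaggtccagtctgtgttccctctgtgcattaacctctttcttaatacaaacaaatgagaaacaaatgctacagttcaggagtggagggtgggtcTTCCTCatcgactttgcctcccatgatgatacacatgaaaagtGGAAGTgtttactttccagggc
Cd33 (chr7:43533172-43533421, - strand): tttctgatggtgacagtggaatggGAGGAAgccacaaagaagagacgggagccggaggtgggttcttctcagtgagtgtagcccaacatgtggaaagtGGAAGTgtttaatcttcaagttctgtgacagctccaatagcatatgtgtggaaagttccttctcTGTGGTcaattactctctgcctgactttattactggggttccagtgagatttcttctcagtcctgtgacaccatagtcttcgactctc

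GAGGAA occurred 3 times before *Siglece*, 2 times before *Siglecg* and 1 time each before *Siglecf* and *Cd33*. It was found in 23.1% of the 27025 RefSeq promoter windows of this length. Since the printed windows were picked on the lowered level, that share is given for scale only. For *Siglecg*, a second annotated start had no GAGGAA in its window. *Siglecf* and *Cd33* shared the 16 bases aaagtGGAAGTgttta, which begin 27 bases before the start of *Siglecf* and 157 before that of *Cd33* and hold the only GGAAGT of either window. GGAAGT was present in 5401 of all these windows and TGTGGT in 14.2% of them. The *Siglech* window held 1 GGAAGT, 1 TGTGGT and no GAGGAA, the *Cd33* window 1 TGTGGT, and the *Cd22* window none of these motifs. The annotated start of *Cd33* in RefSeq lies inside the longer gene model of the GENCODE annotation. These matches describe letters and show no binding.

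Each library held 20028302 to 29128858 estimated counts. Levels are given in CPM, the usual counts scaled to library size, here after trimmed mean of M-values (TMM) normalisation, where 1 count was worth 0.032 to 0.0563 CPM. *Spi1* carried 2042 to 4110 counts in the 8 WT libraries, 27 to 134 in URE LSKs and 277 to 548 in URE GMPs, so that every library matched its genotype label. Its level was lower in URE LSKs (log2 fold change −5.39, SE 0.47, adjusted p = 0.000266 by edgeR with Benjamini-Hochberg correction) and in URE GMPs (log2 fold change −2.73, SE 0.30, adjusted p = 0.00095, same test). The stem cell gene *Hlf* stood at 317 and 374 CPM in WT and URE LSKs against 23.0 and 26.1 CPM in GMPs, and the granule gene *Mpo* at 980 and 812 CPM against 50490 and 91750 CPM. Of 6 markers of either population, 5 LSK markers were called lower and 6 GMP markers higher in GMPs than in LSKs, in both genotypes. Between genotypes, *Flt3* was called lower in URE LSKs and GMPs, *Prtn3* lower and *Elane* higher in URE LSKs, and *Ms4a3* lower and *Fcgr3* higher in URE GMPs. A fit with a block for the replicate number also called *Ctsg* higher and *Ms4a3* lower in URE LSKs. In URE GMPs it added *Mpo*, *Elane* and *Ctsg* as higher and *Procr* as lower. By *Xist* and 4 Y-linked genes, 3 of the 4 WT and 1 of the 4 URE libraries of either cell type were male. The sexes matched between the genotypes in replicates 1 and 4, and were opposite in replicates 2 and 3, where sex and genotype cannot be told apart. The labels number the libraries and do not name the mouse, so p-values measure the spread between these libraries. In such bulk libraries, fewer cells of a type and less RNA per cell cannot be told apart.

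Of the 7 genes, 5 passed the filter on low counts in the LSK comparison and 5 in the GMP comparison. In LSKs, 2 of these were called lower in URE cells, *Siglecg* and *Cd33*, and none higher (called: a fold change above 1.5 with an adjusted p below 0.05 in edgeR). Over all 15154 genes tested, 3.76% were called lower and 2.38% higher. In GMPs, 3 were called lower, *Siglecg*, *Siglece* and *Cd33*, and none higher, beside 3.63% lower and 4.67% higher of the 13829 genes that passed the filter. In LSKs as in GMPs, the URE and WT libraries did not overlap for *Siglecg*, *Siglece*, *Siglecf*, *Cd33* and *Siglech*, the last of which did not pass the filter. Of all genes tested, 6.90% in LSKs and 6.98% in GMPs were lower without overlap, and 5.67% and 7.85% higher. Since the genes were picked on this contrast, the shares are given for scale and nothing is read from them.

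*Siglecg*, an inhibitor of B-cell receptor signalling, showed the widest gap. WT LSKs had 404, 382, 328 and 355 counts (12.9, 12.8, 12.8 and 14.3 CPM). URE LSKs had 0, 1, 0 and 0 counts. All 4 WT libraries were thus close together and all 4 URE libraries were at or next to 0. The pooled ratio was 1364 (95% interval 244 to 53920, counting error only), and the fitted log2 fold change of −9.89 (SE 0.56) depends on how a count of 0 is handled (−11.45 without URE LSK replicate 2). In GMPs the gene was lowered but present. WT GMPs had 392, 295, 167 and 243 counts (17.0, 12.2, 8.16 and 12.6 CPM), and URE GMPs 24, 97, 17 and 36 (1.16, 5.06, 0.871 and 2.03 CPM). Every URE GMP library was below every WT one, and replicate 2 stood above the other 3. The log2 fold change was −2.48 (SE 0.53) and it passed the thresholds. It no longer did without URE GMP replicate 1 (−2.26), URE GMP replicate 4 (−2.43) or WT GMP replicate 4 (−2.49). Without URE GMP replicate 2 it was −3.23 and called. Of the 31-base words of its transcripts, 7.01% occur in other genes, mostly *Gm29791*, and such reads are shared out by the quantifier. In the replicates with matched sexes, 1 and 4, it was −11.5 (SE 0.69) in LSKs and −3.24 (SE 0.39) in GMPs. In replicates 2 and 3 it was −9.15 (SE 0.90) in LSKs and −1.83 (SE 0.78) in GMPs, the last not called.

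**Figure D1:**
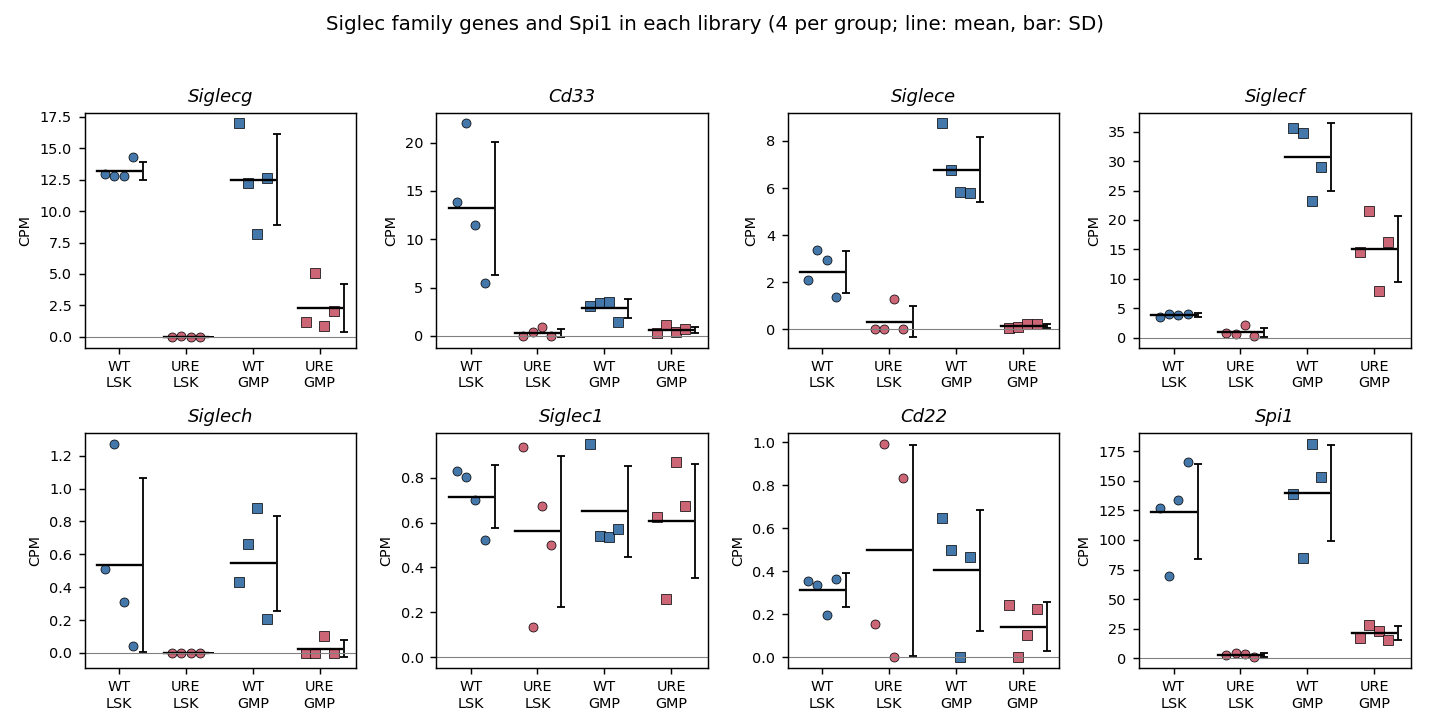
Expression of the 7 Siglec genes and *Spi1* in CPM (linear axes, scaled for each gene) in WT (blue) and URE (red) LSKs (circles) and GMPs (squares). Each point is a library, in the order of the replicates, the line is the mean and the bar the SD of 4 libraries. *Siglecg* is at 0 to 0.0331 CPM in URE LSKs and at 0.871 to 5.06 CPM in URE GMPs.

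*Cd33* was the other gene called lower in both populations. WT LSKs had 432, 656, 294 and 136 counts (13.8, 22.0, 11.5 and 5.47 CPM), and URE LSKs 0, 12, 21 and 0 (0, 0.397, 0.883 and 0 CPM). The WT libraries spread widely, and the groups did not overlap. The log2 fold change was −5.37 (SE 1.05). It was −5.00 and not called without WT LSK replicate 2, and −6.51 and called without URE LSK replicate 3, which held 21 of the URE counts. In GMPs the 4 WT libraries had 71, 83, 72 and 28 counts (3.07, 3.45, 3.52 and 1.45 CPM) and the URE libraries 7, 21, 8 and 12 (0.337, 1.10, 0.41 and 0.675 CPM). Here WT replicate 4 came nearest to the URE libraries, and the log2 fold change was −2.21 (SE 0.47). That call was lost without URE GMP replicate 1 (−2.001), URE GMP replicate 4 (−2.25) or WT GMP replicate 2 (−2.12), with the difference itself little changed. It was also lost in the joint fit (−2.19) and within replicates 1 and 4 (−2.18) or 2 and 3 (−2.24). In LSKs the call held within both pairs, at −11.01 (URE at 0) and −4.74.

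*Siglece*, an inhibitory receptor of phagocytes, had its larger difference in GMPs. WT GMPs had 202, 163, 119 and 112 counts (8.74, 6.77, 5.81 and 5.81 CPM), whereas URE GMPs had 1, 2, 4 and 4 (0.0482, 0.104, 0.205 and 0.225 CPM). All URE GMP libraries were near 0, and the log2 fold change was −5.51 (SE 0.46), with −5.74 within replicates 1 and 4 and −5.31 within 2 and 3, both called. WT LSKs had 65, 100, 75 and 34 counts (2.08, 3.35, 2.93 and 1.37 CPM). URE LSKs had 0, 0, 31 and 0 counts, so all reads of the group came from replicate 3 (1.304 CPM), which lay just below the lowest WT library. The log2 fold change in LSKs was −2.94 (SE 1.31) and did not pass the test. Without URE LSK replicate 3 it was −9.07 and passed, as within replicates 1 and 4 (−8.53) but not within 2 and 3 (−2.32). The same library also had the most *Cd33* and *Siglecf* of its group. Its summed level of 5 monocyte markers was 25.4 CPM, against 9.00 to 22.8 CPM in the other URE LSKs and 29.3 to 52.1 CPM in WT LSKs. *Ccr2* (6.56 CPM) and *Csf1r* (7.23 CPM) were at their highest of the group there, and *Ly6c2*, *F13a1* and *Ly86* in replicate 2. Replicate 3 also had the highest sum of macrophage markers among URE LSKs (97.1 CPM against 65.5 to 88.8 CPM). Its sum of basophil and mast cell markers was the highest as well (154.7 CPM against 84.9 to 109.1 CPM), but 145.7 CPM of it came from *Cpa3*. The other markers of that list were at their lowest of the group there, *Prss34* and *Ms4a2* at 0 and *Mcpt8* at 9.00 CPM. Its sum of eosinophil markers (5.845 CPM) was the lowest too. The part of this library's cell make-up in the result was not tested.

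*Siglecf*, known from eosinophils, was the most abundant member in GMPs and had the smallest difference of these. WT GMPs had 823, 839, 477 and 559 counts (35.6, 34.8, 23.3 and 28.98 CPM) and URE GMPs 302, 411, 156 and 288 (14.6, 21.5, 7.99 and 16.2 CPM). The groups were separated by the gap between 21.5 and 23.3 CPM only. The log2 fold change was −1.04 (SE 0.29), which did not pass the test, and −1.10 with the replicate block, which did. In LSKs, the WT libraries lay at 3.46 to 4.07 CPM (99 to 120 counts), and the URE libraries had 18, 20, 49 and 5 counts (0.701, 0.662, 2.06 and 0.209 CPM). All URE LSKs were below all WT LSKs. The log2 fold change was −2.11 (SE 0.59), not called, and −2.43 and called with the block. Without URE LSK replicate 3 it was −2.89, also called. Replicates 1 and 4 alone gave −3.06 in LSKs and −1.09 in GMPs, both called, and replicates 2 and 3 alone −1.57 and −1.02, neither called.

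**Figure D2:**
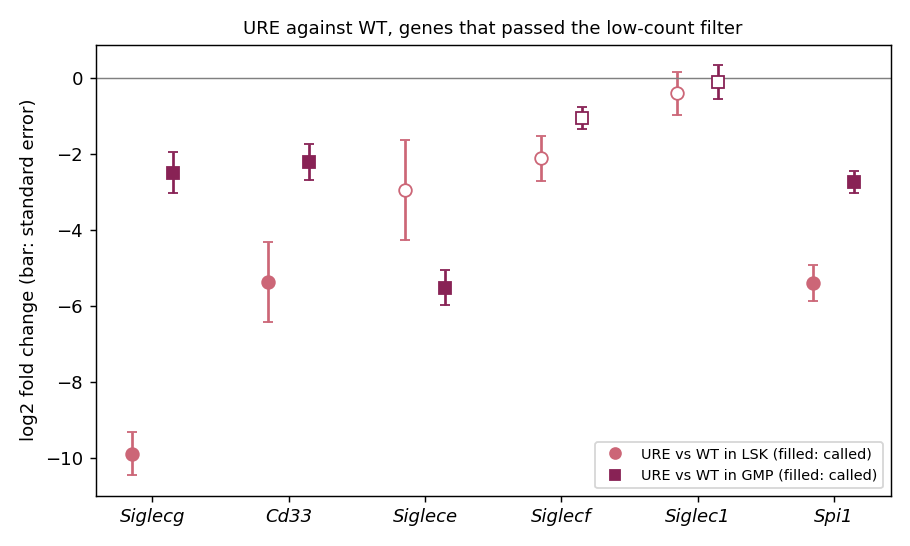
Log2 fold change (vertical axis, bars are SE) of URE against WT in LSKs (circles) and GMPs (squares) for the 5 Siglec genes that passed the filter on low counts, and for *Spi1*. Filled symbols passed both thresholds. *Siglecg* and *Cd33* lie lower in LSKs (−9.89 and −5.37) than in GMPs (−2.48 and −2.21), and *Siglece* lies lower in GMPs (−5.51) than in LSKs (−2.94).

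The remaining 3 genes were scarce. *Siglech*, a marker of plasmacytoid dendritic cells, had 16, 38, 8 and 1 counts in WT LSKs and 0 in all 4 URE LSKs, at least 19.5-fold lower in pooled counts (against a floor of 3 counts over the group). Without WT LSK replicate 2 that bound was 10.6-fold. WT GMPs had 10, 16, 18 and 4 counts and URE GMPs 0, 0, 2 and 0, a pooled ratio of 21.3 (95% interval 5.59 to 181). URE libraries were thus at or near 0 in both cell types, but the gene passed the filter in neither comparison. Where the filter was dropped, or under DESeq2 or the joint fit, it was tested and called lower in both (fitted −6.88, −6.24 and −6.69 in LSKs, −4.12, −4.41 and −4.15 in GMPs). Within replicates 2 and 3 of the GMPs it was tested at −3.77 and not called. *Siglec1* had 4 to 26 counts in every library. Its means were 0.716 ± 0.14 CPM in WT LSKs, 0.56 ± 0.337 in URE LSKs, 0.65 ± 0.202 in WT GMPs and 0.608 ± 0.255 in URE GMPs (SD, n = 4). These levels overlapped throughout, and its log2 fold change was −0.39 (SE 0.57) in LSKs and −0.10 (SE 0.45) in GMPs, neither called. *Cd22*, the other B-cell Siglec of the list, had 0 to 30 counts per library and was the 1 member that passed the filter in no comparison. Its highest count, 30, was in URE LSK replicate 2. Moreover, 479 of its exonic bases overlap the antisense gene *Gm29439*, and reads from the 2 genes cannot be told apart without strand. *Siglec15* and *Mag*, the other Siglecs of the count table, had at most 8 and 15 counts in any library and passed no filter.

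The difference between the cell types in the genotype effect was fitted as an interaction over all 16 libraries. It was 7.35 on the log2 scale (SE 0.92) for *Siglecg*, with the gap wider in LSKs. Since the gene was picked for this very pattern, the value is a description and no test is drawn from it. For scale, 1.22% of the 15935 genes passed an adjusted p of 0.05 in either direction and 0.866% in this one. *Cd33* had an interaction of 3.16 (SE 1.15), *Siglecf* of 1.06 (SE 0.63), *Siglech* of 2.54 (SE 1.77), *Siglec1* of 0.26 (SE 0.72) and *Siglece* of −2.60 (SE 1.48), and none of these 5 passed that threshold. Within replicates 1 and 4 the value for *Siglecg* was 8.09, and within 2 and 3 it was 7.29. The sign of that for *Siglece* turned without URE LSK replicate 3 (3.34). For *Spi1* the interaction was 2.64 (SE 0.52, adjusted p = 0.0219, edgeR, Benjamini-Hochberg), so its own loss was steeper in LSKs.

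Whether the family changes from LSKs to GMPs was asked next. This comparison did not itself serve to pick the genes. The WT levels it uses were, however, part of the URE against WT differences in view, so its p-values are not independent of the picking. In WT cells 6 members were tested, of which 2 were called higher in GMPs and 1 lower, beside 11.5% of the 14767 genes higher and 15.8% lower. *Siglecf* was 7.97-fold higher in GMPs (30.7 ± 5.75 against 3.85 ± 0.277 CPM, SD, n = 4), with a log2 fold change of 2.98 (SE 0.21, adjusted p = 4.07e-05, edgeR, Benjamini-Hochberg). *Siglece* was higher by 1.47 (6.78 ± 1.38 against 2.43 ± 0.884 CPM, SE 0.33, adjusted p = 0.00997, edgeR). *Cd33* went the other way, from 13.2 ± 6.84 CPM in LSKs to 2.87 ± 0.967 CPM in GMPs (log2 fold change −2.21, SE 0.45, adjusted p = 0.00642, edgeR). For each of the 3, all 4 GMP libraries lay on the same side of all 4 LSK libraries. *Siglecg* did not pass the test (13.2 ± 0.726 and 12.5 ± 3.60 CPM, log2 fold change −0.09, SE 0.24, adjusted p = 0.824, edgeR), and neither did *Siglech* (0.01, SE 0.79) and *Siglec1* (−0.15, SE 0.35). The call of *Siglece* was lost in the joint fit of all libraries (1.48) and within replicates 2 and 3 (1.07), and that of *Cd33* within replicates 1 and 4 (−2.09). *Siglecf* was called within both pairs (3.10 and 2.95).

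In URE cells *Siglecf*, *Siglec1* and *Siglecg* passed the filter. The URE LSK levels of the members were in view when they were picked, so these values are given without a p. *Siglecf* and *Siglecg* passed the thresholds, and nothing is read from that. For scale, 9.20% of the 14395 genes were called higher (21.8% in either direction). *Siglecf* stood at 0.908 ± 0.80 CPM in LSKs and 15.1 ± 5.55 CPM in GMPs (SD, n = 4). Its log2 fold change was 3.99 (SE 0.64), or 4.83 without URE LSK replicate 3. All 4 URE GMP libraries lay above all 4 URE LSK libraries for this gene, as in WT cells. *Siglecg* had a log2 fold change of 7.21 (SE 0.99), which rests on the URE LSK level for which it was picked, and is given without a test. *Siglec1* did not pass the test (0.08, SE 0.63). *Siglece*, *Cd33*, *Siglech* and *Cd22* had too few counts in URE cells to be tested. The order of *Cd33* seen in WT cells was absent in their means, 0.32 ± 0.42 CPM in URE LSKs and 0.63 ± 0.343 CPM in URE GMPs.

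**Figure D3:**
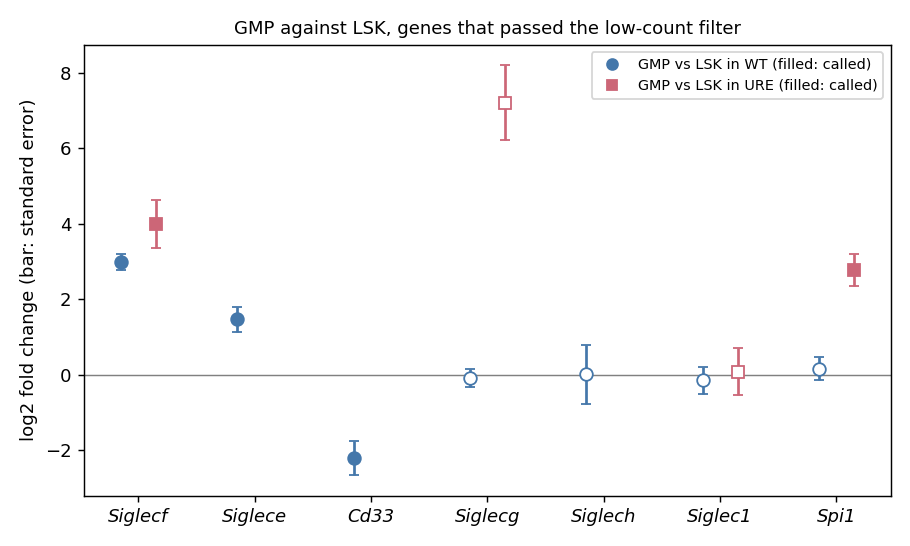
Log2 fold change (vertical axis, bars are SE) of GMP against LSK in WT (circles) and URE cells (squares) for the Siglec genes that passed the filter on low counts, and for *Spi1*. Filled symbols passed both thresholds, and *Siglecg* in URE cells is drawn open because it rests on the level for which it was picked. The Siglec values in URE cells are given without a p. *Siglecf* is above 0 in both genotypes (2.98 and 3.99), and *Siglecg* departs from 0 in URE cells (7.21) and not in WT cells (−0.09).

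To compare genes with each other, CPM were divided by the exonic length in kb. In WT LSKs *Siglecg* led with 2.75 ± 0.151 CPM per kb, followed by *Cd33* (1.70 ± 0.88), *Siglecf* (1.38 ± 0.0994) and *Siglece* (1.32 ± 0.478), and neighbours among these 3 differed by less than the larger of their SDs. In WT GMPs *Siglecf* led by far, ahead of *Siglece* (3.67 ± 0.748), *Siglecg* (2.60 ± 0.749) and *Cd33* (0.37 ± 0.124). In URE LSKs the order was *Siglecf* (0.326 ± 0.287), *Siglece* (0.176 ± 0.353) and *Cd22* (0.0984 ± 0.0974), which differed by less than the larger SD of each pair of neighbours. In URE GMPs *Siglecf* (5.39 ± 1.99) stood above *Siglecg* (0.474 ± 0.40), and the other 5 were at 0.0852 or less. *Siglech*, *Siglec1* and *Cd22* were at 0.161 CPM per kb or less in every group. Summed over the 7 genes, the family reached 7.46 ± 1.36 CPM per kb in WT LSKs and 0.722 ± 0.625 in URE LSKs (0.412 without URE LSK replicate 3). The sums were 18.0 ± 3.42 in WT GMPs and 6.15 ± 2.31 in URE GMPs (SD, n = 4). *Siglecf* made up 61.2% of this sum in WT GMPs and 87.7% in URE GMPs. *Siglecg* made up 36.8% in WT LSKs and 0.239% in URE LSKs.

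**Figure D4:**
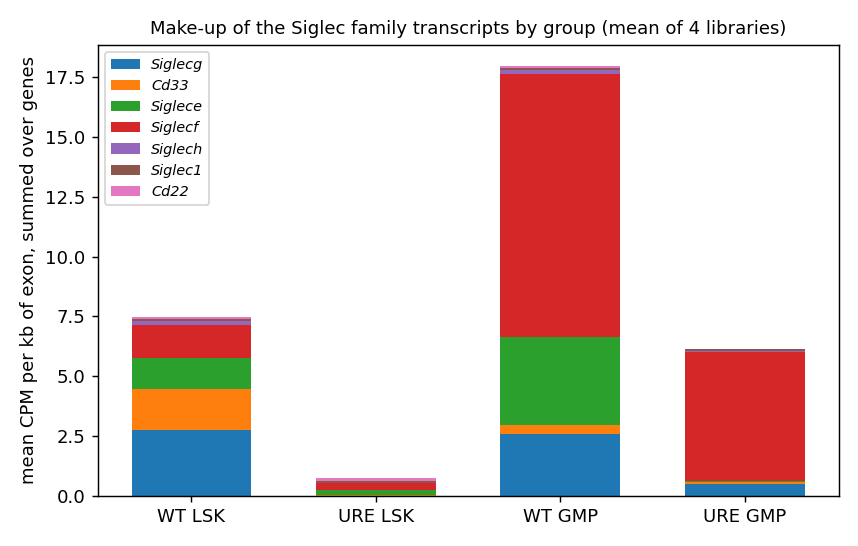
Mean level of each Siglec gene in CPM per kb of exon, stacked, for the 4 groups (4 libraries each). The summed level is 7.46 in WT LSKs, 0.722 in URE LSKs, 18.0 in WT GMPs and 6.15 in URE GMPs, and *Siglecf* takes up most of the GMP bars.

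Markers of the cells in which these Siglecs are best known were read in the same libraries. The 7 B-cell markers summed to 179 to 410.3 CPM in WT LSKs and 67.5 to 130 CPM in URE LSKs. They summed to 178 to 232 CPM in WT GMPs and 12.6 to 36.7 CPM in URE GMPs. Most of this came from *Cd74* and *Cd79b*, which were called lower in both cell types. *Pax5* had 10 counts in WT LSKs and was at 0 in both URE groups and in WT GMPs, where *Siglecg* stood at 12.5 CPM. In WT and URE LSKs *Cd79a* stood at 0.995 and 0.794 CPM, *Ebf1* at 1.84 and 0.753 CPM and *Vpreb3* at 0.352 and 0.251 CPM. *Ms4a1* stood at 0.0513 and 0.116 CPM there. In WT and URE GMPs *Cd79a* stood at 0.0688 and 0.0648 CPM, *Ebf1* at 0.223 and 0.118 CPM and *Vpreb3* at 0.117 and 0.394 CPM. *Ms4a1* stood at 0.0474 and 0.0379 CPM in these. The part of these markers in the *Siglecg* difference was not tested. The 6 eosinophil markers summed to 571 to 1234 CPM in WT GMPs, 69.4 to 310 CPM in URE GMPs, 10.7 to 16.3 CPM in WT LSKs and 5.84 to 28.7 CPM in URE LSKs. They were lower in URE GMPs, where *Siglecf* was lower too, and 5 of the 6 were called lower there. Their part in the *Siglecf* levels was not tested. The 8 markers of plasmacytoid dendritic cells, beside *Siglech*, summed to 306 to 452 CPM in WT LSKs and 210 to 372 CPM in URE LSKs, with *Klk1* at 0 in all groups. Most of these sums came from *Tcf4* (222 and 211 CPM) and *Bst2*. *Irf8* fell from 48.1 to 5.36 CPM and *Cox6a2* from 6.35 to 0.116 CPM in LSKs, both called, whereas *Ccr9* stood at 7.33 and 31.1 CPM and was not called. In GMPs they summed to 398 to 582 CPM in WT and 173 to 317 CPM in URE cells. There *Irf8* was called lower, *Cox6a2* stood at 4.92 and 0.985 CPM (called with the block), and *Ccr9* at 0.123 and 2.58 CPM. Of this list edgeR called 1 and DESeq2 4 in GMPs. The 9 macrophage markers summed to 127 to 201 CPM in WT LSKs, 65.5 to 97.1 CPM in URE LSKs, 195 to 455 CPM in WT GMPs and 135 to 379 CPM in URE GMPs, while *Siglec1* reached at most 0.952 CPM. *Csf1r* and *Cd68* were called lower in both cell types, *Spic* in LSKs and *Adgre1* in GMPs, and *Vcam1* stood at 51.6 CPM in WT and 150.4 CPM in URE GMPs and was called by DESeq2 and with the replicate block, but not by edgeR without it. The 5 monocyte markers summed to 1382 to 1861 CPM in WT GMPs and 373 to 1750 CPM in URE GMPs. *Ly86*, *Ccr2* and *Csf1r* were called lower (68.0 to 5.83, 146 to 28.98 and 136 to 12.7 CPM). *F13a1* stood at 978 and 139 CPM and *Ly6c2*, in the other direction, at 306 and 631 CPM, neither called, though *F13a1* was called lower with the replicate block. The highest URE sum was the 1750 CPM of replicate 2, in which all 5 markers were highest (*Ly6c2* 1193 CPM, *F13a1* 453 CPM against 26.5 to 47.4 CPM in the others). This library also had the most *Siglecg*, *Siglecf* and *Cd33* of the URE GMPs. *Siglece* (0.104 CPM) was lower there than in replicates 3 and 4, *Siglec1* (0.261 CPM) was at its lowest, and *Siglech* and *Cd22* had 0 counts. *Spi1* was highest in that library as well (28.6 CPM). The 4 basophil and mast cell markers summed to 23.2 to 44.0 CPM in WT LSKs and 84.9 to 154.7 CPM in URE LSKs. In GMPs they summed to 626 to 1230 CPM in WT and 848 to 2331 CPM in URE cells. *Mcpt8* was called higher in both URE populations and *Cpa3* in URE LSKs. *Prss34* (187.5 to 35.0 CPM) and *Ms4a2* (74.1 to 9.76 CPM) were called lower in URE GMPs. The part of these markers in the Siglec levels was not tested.

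The genes whose levels ran most like *Siglecg* over the 16 libraries were *Nfam1*, *BC035044*, *Spi1*, *Cd300a* and *Themis2*. Likeness was the root mean square difference of centred log2 CPM among the 9072 genes that averaged 3 log2 CPM or more. It takes in the URE against WT gap for which *Siglecg* was picked. Genes with a like gap therefore rank near it, and nothing further is read from the order. *Nfam1* differed from *Siglecg* by 0.83 and *Spi1* by 0.95, where *Siglecg* itself spread by 2.96. *Nfam1* stood at 101 CPM in WT LSKs, 2.12 in URE LSKs, 126 in WT GMPs and 34.8 in URE GMPs. *Siglecf* ran most like *Lgals1* (0.68) and *Prtn3* (0.77), *Cd33* most like *Fgd2* (1.09) and *Cd24a* (1.10), and *Siglece* most like *Gm43305* (0.99) and *Tpm4* (1.03). For the scarce *Siglech* the nearest were *Cd68* and *Cep85* (both 0.75), and for *Siglec1* it was *Thada* (0.37). The nearest other genes to the members of the cluster on chromosome 7 were scarce or did not pass the test in LSKs. Of these, *Zfp715* and *Ctu1* flank the cluster, and the others lie between its members. *Zfp715*, beside *Siglecf*, had a log2 fold change of −0.14 in LSKs (SE 0.25, adjusted p = 0.923, edgeR) and *Ctu1*, beside *Siglece*, of −0.27 (SE 0.39, adjusted p = 0.893, edgeR). *Zfp658*, beside *Cd33*, was called lower in GMPs (−1.33, SE 0.34, adjusted p = 0.0452, edgeR) and had −1.89 in LSKs (SE 0.55, adjusted p = 0.0876, edgeR). *Lim2*, *Ceacam18* and *4931406B18Rik* had a mean of at most 0.438 CPM in any group.

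Genes that act with Siglecs were read from lists of the pathway, which were chosen with earlier results of these data known. Shares of all genes are given beside them for scale. Of 12 signalling genes, 3 were called lower in URE LSKs and none higher, beside 6.14% of all genes in either direction. The median log2 fold change of the list was −0.74, and that of all genes 0.00093. *Ptpn6*, which encodes SHP-1, the phosphatase that ITIM Siglecs recruit, fell from 320 ± 37.4 to 135 ± 18.8 CPM (log2 fold change −1.27, SE 0.16, adjusted p = 0.00145, edgeR, Benjamini-Hochberg). *Tyrobp*, which encodes DAP12, the partner of *Siglech*, fell by 3.04 (24.9 ± 9.70 to 3.09 ± 0.797 CPM, adjusted p = 0.000983, edgeR). *Blnk*, a B-cell linker protein, fell by 2.51 (adjusted p = 0.00708, edgeR). With the replicate block 6 genes of the list were called, 5 lower and *Socs3* higher. In URE GMPs 2 of the 12 were called lower (3 with the block, and 1 higher) and none higher without the block, beside 8.30% of all genes in either direction, with a list median of −0.12. *Ptpn6* fell by 0.66 (adjusted p = 0.0432, edgeR) and *Blnk* by 1.53 (adjusted p = 0.0485, edgeR). *Tyrobp* had a log2 fold change of −2.08 (SE 0.57, adjusted p = 0.0561 in edgeR without the block and 0.00207 with it). The other phosphatases, *Ptpn11* (SHP-2) and *Inpp5d* (SHIP-1), passed the test in neither cell type. No interaction was called by edgeR or DESeq2 in this list, 1 gene had an unadjusted p under 0.05, and 4 were called with the replicate block.

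**Figure D5:**
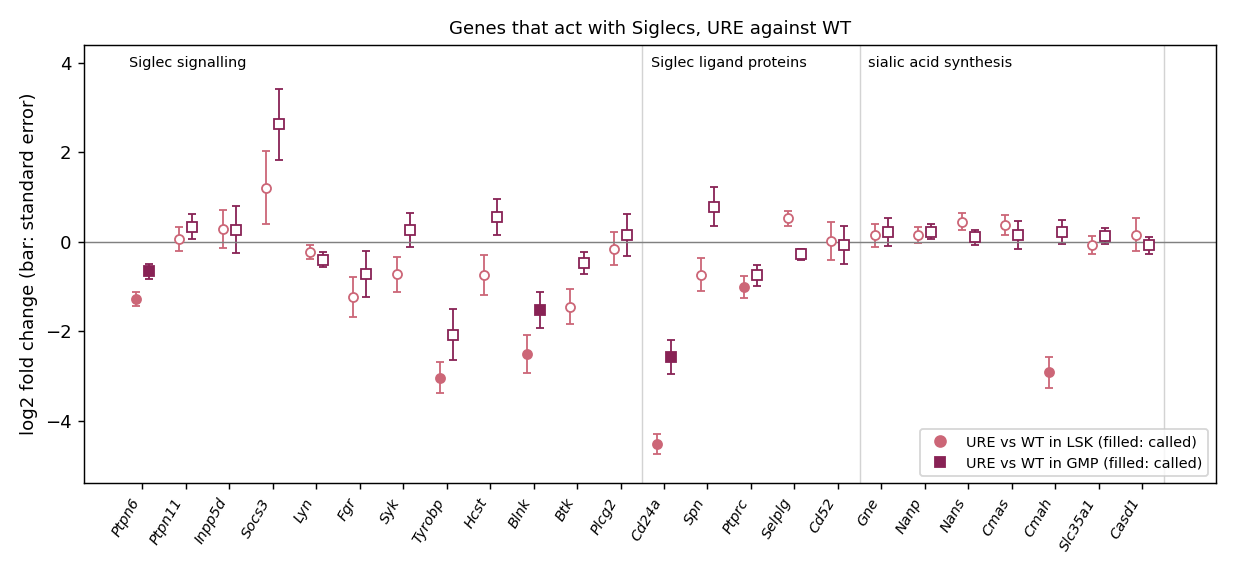
Log2 fold change (vertical axis, bars are SE) of URE against WT in LSKs (circles) and GMPs (squares) for 12 genes of Siglec signalling, 5 proteins known to bind Siglecs and 7 genes of sialic acid synthesis. Filled symbols passed both thresholds. *Cd24a* is the lowest point in LSKs (−4.52), and *Cmah* is low in LSKs (−2.92) and near 0 in GMPs (0.22).

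Among 5 proteins known as Siglec ligands, *Cd24a*, the sialoglycoprotein bound by *Siglecg*, was the most lowered. It fell from 89.9 ± 14.6 to 3.99 ± 0.73 CPM in LSKs (log2 fold change −4.52, SE 0.23, adjusted p = 5.19e-05, edgeR, Benjamini-Hochberg). In GMPs it fell from 78.6 ± 8.55 to 13.3 ± 7.67 CPM (log2 fold change −2.58, SE 0.38, adjusted p = 0.00356, edgeR). Its interaction of 1.93 passed (SE 0.44, adjusted p = 0.0463, edgeR), as did that of *Selplg* (−0.83, SE 0.19, adjusted p = 0.0445, edgeR). *Ptprc* (CD45), a ligand of *Cd22*, fell by 1.01 in LSKs (adjusted p = 0.0429, edgeR) and had a log2 fold change of −0.75 in GMPs (adjusted p = 0.0917 in edgeR without the block and 0.00793 with it). *Spn* and *Cd52* were called in neither cell type.

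Genes that make, attach and remove sialic acid were read next, beside 6.14% of all genes called in LSKs and 8.30% in GMPs. Of 7 synthesis genes, 1 was called in LSKs, *Cmah*, the enzyme that converts N-acetyl- to N-glycolylneuraminic acid, the form that mouse CD22 prefers. It fell from 37.8 ± 15.5 to 5.09 ± 0.847 CPM (log2 fold change −2.92, SE 0.34, adjusted p = 0.00105, edgeR, Benjamini-Hochberg). In GMPs it stood at 7.44 ± 1.52 CPM in WT and 8.74 ± 2.17 CPM in URE cells, and its interaction was 3.12 (SE 0.42, adjusted p = 0.00209, edgeR). In GMPs no gene of the list was called by edgeR or DESeq2, and none had an unadjusted p under 0.05. Of 15 sialyltransferases tested in LSKs, *St6galnac3* was called lower (21.3 ± 5.599 to 7.31 ± 1.35 CPM, log2 fold change −1.58, SE 0.27, adjusted p = 0.00766, edgeR). In LSKs 6 had an unadjusted p under 0.05, DESeq2 called 2 and the replicate block called 3. Of 12 tested in GMPs, 0 were called by edgeR, 2 had an unadjusted p under 0.05, and 2 were called by DESeq2 and 2 with the block. Of 4 sialidases and related enzymes tested, 0 were called in either cell type by edgeR, with 0 in LSKs and 2 in GMPs at an unadjusted p under 0.05. DESeq2 called 0 and 1 of them, and the replicate block 0 and 2.

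Other receptors with an ITIM went both ways. Of 13 tested in LSKs, 4 were called lower in URE cells (*Pirb*, *Cd300a*, *Clec12a* and *Fcgr2b*) and *Lair1* higher, beside 6.14% of all genes called in either direction. *Cd300a* fell from 55.0 ± 8.55 to 0.874 ± 0.576 CPM (log2 fold change −5.99, SE 0.67, adjusted p = 0.000923, edgeR, Benjamini-Hochberg), and *Fcgr2b* from 13.5 ± 1.16 to 0.492 ± 0.45 CPM (−4.77, SE 0.78, adjusted p = 0.0064, edgeR). With the replicate block 9 were called, 6 lower and 3 higher. In GMPs, *Cd300a* and *Clec4a2* were called lower of 12 tested, and *Lilrb4a*, *Cd72*, *Pecam1* and *Lair1* higher, beside 8.30% of all genes. With the block 9 were called. *Cd72*, an ITIM receptor of B cells, rose from 35.8 ± 5.95 to 188 ± 22.5 CPM there (log2 fold change 2.38, SE 0.18, adjusted p = 0.000283, edgeR). The list's median log2 fold change was −0.59 in LSKs and 0.26 in GMPs.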

How the data were processed

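RNA from sorted LSKs and GMPs (up to 10 ng per library, unstranded NEBNext low-input kit, paired-end, no molecular identifiers) was sequenced by the authors and quantified with Salmon against GRCm38, per the labels, and the deposited table holds estimated counts per gene, already whole numbers. Counting intervals and floors cover counting error only. Every one of the 16 columns was matched to a sample by its name. From these counts, edgeR 4.0.16 (R 4.3.3; filterByExpr, TMM, quasi-likelihood F-test, Benjamini-Hochberg over all genes tested) compared URE with WT and GMP with LSK, 8 libraries per fit, and the interaction over all 16. The thresholds, a fold change above 1.5 and an adjusted p below 0.05, follow the study's methods, and the interaction used the adjusted p alone. SE is the fold change divided by the root of the F statistic. On simulated counts for URE against WT in LSKs (14824 genes), 54% of 200 genes changed 4-fold were recovered with 9 false calls. Same-numbered libraries deviated together in every pair (correlation across genes 0.237 to 0.711), so the replicate number paired them, and a block fit was run beside each result. Alternatives were DESeq2 1.42.0, median-of-ratios scaling, other filters, a joint fit, replicate pairs and leaving out each library. Exonic lengths and neighbours are from GENCODE M21, promoters from RefSeq.

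The Siglec genes and the gene lists were chosen with earlier results of these data known. Genes named are *Spi1*, the Siglec genes, list genes called in the contrast described (others by count or as a named role), genes among the 5 nearest in pattern to each Siglec that passed the filter over all 16 libraries, neighbours and markers. *St6galnac2* has 2 identifiers in the table and was left out of its list. 2 genes of the lists are not reported here, and the counts, medians and sums of those lists leave them out.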

Additional observations from a re-analysis of the deposited data

Results flagged for a closer look

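One value lay far from the other 3, by the size of its gap against the whole range, in 6 of the 27 groups of Siglec values examined. Chance gives about 1 in 20 where values are continuous, but in 3 of the 6 the other libraries were all at 0, which fixes the ratio whatever the remaining count. *Siglecg* had 14.3 CPM in WT LSK replicate 4 against 12.8 to 12.9 CPM in the others, and 0.0331 CPM (1 count) in URE LSK replicate 2 against 0. *Siglece* had 1.304 CPM (31 counts) in URE LSK replicate 3 against 0. *Siglech* had 0.102 CPM (2 counts) in URE GMP replicate 3 against 0. *Siglec1* had 0.952 CPM in WT GMP replicate 1 against 0.537 to 0.57 CPM. *Cd22* had 0.195 CPM in WT LSK replicate 3 against 0.335 to 0.362 CPM.

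The pathway lists were chosen with earlier results of these data known, so the share of their genes is given for scale and nothing is read from it. For 7 of the 56 pathway list genes tested, beside 1.22% of all genes, the URE against WT difference was unlike in the 2 cell types (interaction in edgeR, Benjamini-Hochberg). The difference (GMP minus LSK, log2 scale) was 3.12 for *Cmah* (adjusted p = 0.00209), 1.93 for *Cd24a* (adjusted p = 0.0463), −0.83 for *Selplg* (adjusted p = 0.0445), 2.22 for *Clec12a* (adjusted p = 0.014), 3.95 for *Fcgr2b* (adjusted p = 0.0166), 1.63 for *Cd72* (adjusted p = 0.0135) and 1.56 for *Pecam1* (adjusted p = 0.00771).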

How the results depend on the processing

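With DESeq2, 1635 genes were called in LSKs, 1997 in GMPs and 672 for the interaction, and with the replicate block 1433, 2260 and 1047, against 930, 1148 and 194. The block changed no call of a Siglec gene other than *Siglecf*. Within replicates 2 and 3 the counts were 386, 108 and 2, and for GMP against LSK 2507 in WT and 810 in URE cells. Leaving out 1 library gave 565 to 961 genes in LSKs (565 without WT LSK replicate 2, 606 without replicate 4), 715 to 1176 in GMPs and 84 to 283 for the interaction (both lowest without URE GMP replicate 4). The interaction count also lay between 102 and 115 without URE LSK replicate 4, WT GMP replicate 2 or 4, or WT LSK replicate 1, 2 or 4. Of the Siglec genes, DESeq2 called 4 in LSKs and 5 in GMPs, the joint fit 4 in LSKs, replicates 1 and 4 alone 4 in LSKs, and replicates 2 and 3 alone 1 in GMPs and 0 for the interaction. Leaving out 1 library gave 1 to 4 in LSKs, the lowest without WT LSK replicate 2 and the highest without URE LSK replicate 3, and 1 to 4 in GMPs, the lowest without URE GMP replicate 1 or 4. For GMP against LSK in URE cells the filter of 1 CPM in 4 libraries left 1 past the thresholds, *Siglecf*, since *Siglecg* was no longer tested. The causes were not tested. Uncalled values that turned sign were *Siglec1* within replicates 1 and 4 (0.043 in LSKs, 0.17 for GMP against LSK in WT, −0.13 in URE, interaction −0.31) and within replicates 2 and 3 (0.065 in GMPs). Without 1 library, it ranged from −0.36 to 0.15 in GMPs, −0.21 to 0.48 for GMP against LSK in URE and −0.068 to 0.63 for the interaction. The WT difference of *Siglecg* between cell types was 0.12 within replicates 1 and 4 and −0.23 to 0.10 without 1 library, that of *Siglech* −0.36 to 0.88, and its interaction −0.027 to 2.91. The interaction of *Siglece* was 2.61 within replicates 1 and 4 and −3.02 to 3.34 without 1 library. At these depths a gene with few counts, such as *Siglech*, *Siglec1* or *Cd22*, shows only large differences.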
